A study of Homo sapiens with 16 samples.

Results

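The 10 globin genes of the human alpha and beta clusters were followed in K562 cells treated with phorbol 12-myristate 13-acetate (PMA), and all 10 were found among the 35052 genes that the deposited tables cover. The members were taken by name: HBZ, HBM, HBA2, HBA1 and HBQ1 of the alpha cluster, and HBE1, HBG2, HBG1, HBD and HBB of the beta cluster. K562 is an established human leukaemia cell line with red cell features, wild type in every library, and PMA activates protein kinase C. Total RNA without its ribosomal part was sequenced before treatment (0 h), early with 25 nM PMA (0.5, 1.5, 3 and 6 h) and late (24, 48 and 72 h). Each time point has 2 libraries, which makes 16. The medium was changed after 24 h and 48 h, the 0 h libraries are the only untreated ones, and every library came from 1 cell line. Nothing in the labels says that the 2 libraries of a time point came from separate cultures, so p-values measure only the spread between these libraries, which may be technical.

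A haemoglobin molecule joins alpha-like chains to beta-like chains, and both clusters are used in developmental order. Zeta (HBZ) and epsilon (HBE1) belong to the embryo, gamma (HBG1 and HBG2) to the fetus, and beta (HBB) with a little delta (HBD) to the adult, while alpha (HBA1 and HBA2) is not confined to a single stage. HBM encodes the alpha-like mu chain, and HBQ1 the alpha-like theta chain, whose role is less well known. K562 is known as a line that makes embryonic and fetal globins rather than the adult beta chain.

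On GRCh38 the alpha cluster lies on the plus strand of chromosome 16, where HBZ spans 152687 to 154503, HBM 153892 to 166768, HBA2 172876 to 173710, HBA1 176680 to 177522 and HBQ1 180453 to 181181. The beta cluster lies on the minus strand of chromosome 11, with HBB at 5225464 to 5229395, HBD at 5232678 to 5243657 and HBG1 at 5248079 to 5249859. HBG2 is annotated from 5253190 to 5505605 and HBE1 from 5268345 to 5505652, because 1 annotated HBG2 transcript and 2 of HBE1 start far upstream. The GC content per gene, a mean over its transcripts weighted by TPM, was 64.4 to 68.8% for the alpha-like genes and 47.0 to 51.7% for the beta-like genes.

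The libraries held between 27285773 and 54056289 estimated reads, and 3 reads, the limit that a count of 0 allows, amounted to 0.0623 to 0.128 CPM (reads of a gene relative to the scaled library size). Such limits cover counting error only. Replicate 2 of 0 h stood apart: the gap between transcript length and effective length was 199 nt there, against 229 to 248 nt in the other libraries of replicate 2 and 210 to 221 nt in replicate 1. Across 9995 genes the log2 fold change against 0 h correlated with GC content at r = -0.76 at 0.5 h and r = -0.43 at 1.5 h, and at r = -0.17 to -0.02 from 3 h onward. All comparisons against 0 h share these libraries, so values without that library are given where they change a call. For HBA1+HBA2, HBZ and HBE1 the range of late fold changes over the other settings and left-out libraries is also given. The megakaryocyte markers summed to 49.4 and 82.0 TPM (a level per transcript length) at 0 h and to 1850 and 1830 TPM at 72 h. At 72 h 6 of 9 tested were called higher and 0 lower, a number called near the background (58.6% of all tested genes called, 26.9% lower). THBS1, a secreted platelet glycoprotein, changed most (log2 10.34), and it and ITGB3 reached 1240 and 488 TPM. ITGA2B was lower at 24 h (log2 -2.14) and at 72 h differed by log2 0.10, which did not pass the test. ITGA2B, PLEK and TUBB1 were lower at both 6 and 24 h, where 5 markers were higher (57.2% and 58.3% of all genes called, 29.4% and 26.6% lower). GP9 and PF4 had 0 or 1 read in any library. Of the K562 markers 5 of 10 were higher and 2 lower at 72 h, 7 called in all and near the 72 h background, among them KIT, a growth factor receptor, at log2 5.88. Their sum was 917 and 884 TPM at 0 h and 824 and 863 TPM at 72 h. The lymphoid markers summed to 45.6 to 123 TPM. PTPRC (mean 61.5 TPM over all libraries) and CD3D (mean 33.6 TPM) were the most abundant, with MS4A1 at 0 to 1 read and CD2 at 0 to 2 reads in any library. Of 4 tested, CD3D (log2 1.12) and CD79A were the 2 higher at 72 h, and PTPRC (log2 -0.70) was among the 2 lower. The monocyte and granulocyte markers summed to 56.7 to 93.2 TPM, and 3 of 6 tested were higher and 1 lower at 72 h. LYZ, the most abundant, was lower at 24 h (log2 -1.03) and 72 h (log2 -0.59), ELANE had 0 or 1 read, and MPO went from 0.0614 and 0.0644 CPM at 0 h to 23.5 and 22.6 CPM at 72 h. The part of these other markers in the globin results was not tested.

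The globin RNA of untreated K562 cells was mostly gamma, and 7 of the 8 tested members were lower at 24 h than before PMA. The alpha-like genes and HBE1 were still lower at 72 h, whereas gamma was back near its starting level at 48 h. Of the 10 members, 8 had enough reads to be tested; HBB and HBM had at most 4 reads and 1 read in any library and fell under the low-count filter. No member was called at 0.5, 1.5 or 3 h by edgeR's quasi-likelihood test at a Benjamini-Hochberg adjusted p under 0.05, where 0.171%, 17.1% and 42% of all tested genes were called. At an unadjusted p under 0.05 the counts were 2, 3 and 1, and DESeq2 also called 0 at each of these times. At 6 h 3 members were lower and 0 higher (57.2% of all genes called, 29.4% lower), and at 24 h 7 were lower and 0 higher (58.3% called, 26.6% lower). Both 48 h and 72 h had 5 members lower and 0 higher, where 54.3% and 58.6% of genes were called and 24.1% and 26.9% were lower. The median log2 fold change of all tested genes lay between -0.03 and 0.00 at every time point. In bulk RNA, fewer cells expressing a globin and less globin RNA per cell cannot be told apart.

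**Figure D1:**
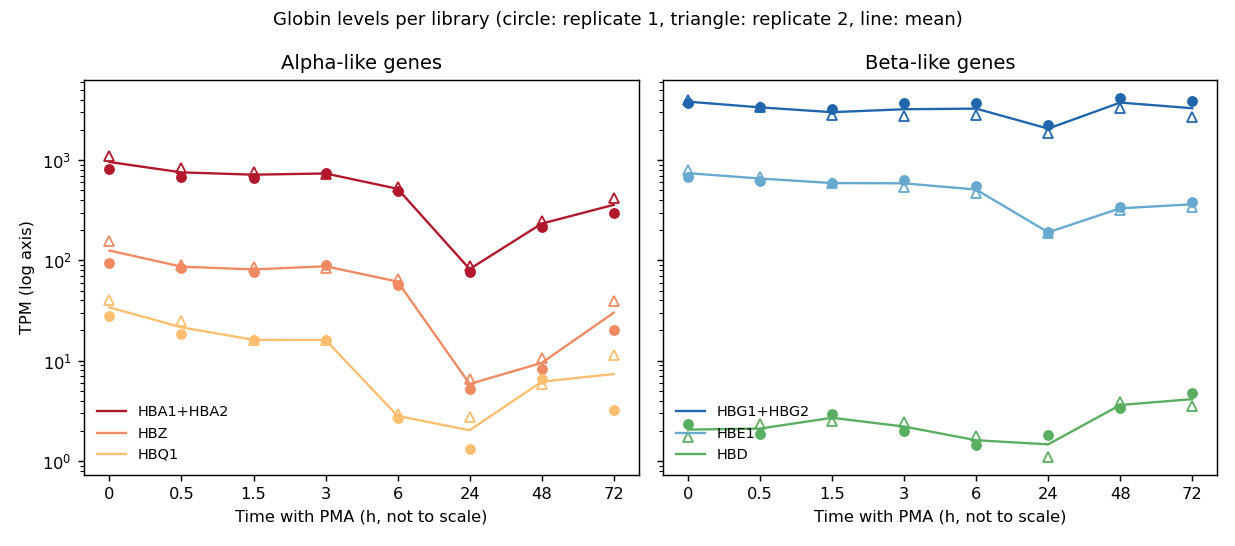
TPM (log axis) of the globin genes in each library against time with PMA (h, not to scale); circles are replicate 1, triangles replicate 2, lines the mean of both. The alpha-like genes on the left fall steeply to 24 h, with HBA1+HBA2 at 76.3 and 87.7 TPM there, while HBG1+HBG2 on the right stays above 1800 TPM in each of the 16 libraries.

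Between neighbouring time points the members moved in a few steps. From 0.5 to 1.5 h and from 1.5 to 3 h edgeR called 0 members (5.77% and 25.1% of all genes), with 0 at an unadjusted p under 0.05 and 0 by DESeq2. From 3 to 6 h 2 members fell, HBA2 and HBQ1 (41.2% of genes called, 22.1% lower). From 6 to 24 h 6 fell (56.6% called, 25.8% lower), all tested members but HBQ1 and HBD. From 24 to 48 h 6 rose and 0 fell: HBA1, HBA2, HBG1, HBG2, HBE1 and HBD (15% called, 8.88% higher). Without any 1 of the 4 libraries of these times, 2 were called. From 48 to 72 h 1 member rose, HBZ (1.47% called, 1.14% higher). Over the whole course 8 of 8 tested members changed, beside 82.9% of all genes, and 5 did without replicate 2 of 24 h.

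The alpha-globin RNA, from the HBA1 and HBA2 copies that encode the same chain, was at its lowest at 24 h and then partly returned. The copies share reads, so they are given as a sum. At 0 h the sum was 815 and 1100 TPM, at 0.5 h 683 and 826 TPM, at 1.5 h 668 and 763 TPM, and at 3 h 746 and 725 TPM. It was 494 and 541 TPM at 6 h, 76.3 and 87.7 TPM at 24 h, 217 and 248 TPM at 48 h, and 295 and 421 TPM at 72 h. From 6 h on, each library lay below both 0 h libraries, and 24 h was the lowest point in both replicates. On the CPM scale the sum was 11.3-fold lower at 24 h than at 0 h (log2 -3.50, SE 0.23, edgeR adjusted p = 1.74e-08), and the log2 value was -3.15 without replicate 2 of 0 h. It was 4.44-fold lower at 48 h (log2 -2.15, SE 0.21, edgeR adjusted p = 1.31e-06) and 2.93-fold lower at 72 h (log2 -1.55, SE 0.21, edgeR adjusted p = 2.26e-05). Over the other settings and left-out libraries the log2 value was -2.43 to -1.8 at 48 h and -1.83 to -1.17 at 72 h. The rise from 24 to 48 h was 2.54-fold (log2 1.35, SE 0.21, edgeR adjusted p = 0.000856), and from 48 to 72 h the log2 difference of 0.60 did not pass the test (edgeR adjusted p = 0.229).

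At 6 h the fall of alpha globin was smaller, and its call depended on single libraries of 0 h and 6 h and on the GC trend. The log2 fold change of the sum was -0.62 (SE 0.21, edgeR adjusted p = 0.0186). Without replicate 2 of 0 h it was -0.28, without replicate 1 of 0 h -0.90, and without replicate 1 of 6 h -0.48. With each library's GC trend removed it was -0.07 (edgeR adjusted p = 0.645). From 24 h on the fall kept its call without each library in turn. Taken apart, HBA1 made up 65.4 to 78.3% of the HBA TPM, and the single-copy log2 fold changes at 24 h were -3.48 for HBA1 and -3.55 for HBA2.

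HBZ, the embryonic zeta chain, fell further by 24 h and passed the test for a rise between 48 and 72 h. It was at 94.6 and 156 TPM at 0 h, at 83.9 and 89.3 TPM at 0.5 h, at 77.3 and 85.2 TPM at 1.5 h, and at 90.3 and 84.5 TPM at 3 h. Later it was at 57.2 and 65.7 TPM at 6 h, 5.19 and 6.53 TPM at 24 h, 8.31 and 10.7 TPM at 48 h, and 20.4 and 39.7 TPM at 72 h. The 24, 48 and 72 h libraries did not overlap those of 0 to 6 h. HBZ was 20.2-fold lower at 24 h than at 0 h (log2 -4.34, SE 0.35, edgeR adjusted p = 1.4e-07), 13.9-fold lower at 48 h and 4.53-fold lower at 72 h (log2 -2.18, SE 0.30, edgeR adjusted p = 2.92e-05). Over the other settings and left-out libraries its log2 value was -4.71 to -3.82 at 24 h and -2.71 to -1.67 at 72 h. Its difference between 24 and 48 h did not pass the test (log2 0.54, SE 0.37, edgeR adjusted p = 0.37), and from 48 to 72 h it rose 3.07-fold (log2 1.62, SE 0.33, edgeR adjusted p = 0.0316). That rise lost its call in the fit of the 48 h and 72 h libraries alone, and without either 48 h library, replicate 2 of 72 h or either 0.5 h library. The 6 h value of log2 -0.75 (SE 0.29, edgeR adjusted p = 0.0398) was -0.23 without replicate 2 of 0 h (edgeR adjusted p = 0.535) and -0.15 with the GC trend removed. It also lost its call without either 6 h library, at log2 -0.57 and -0.91, and without any 1 of the 0.5 h and 1.5 h libraries.

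HBQ1, the theta gene at the far end of the alpha cluster, fell between 3 and 6 h, before the main fall of the other globins. Reads were 186 and 294 at 0 h, then 147 and 169 at 0.5 h, followed by 125 and 120 at 1.5 h, then 157 and 119 at 3 h. At 6 h it had 16 and 23 reads, at 24 h only 9 and 31, by 48 h again 43 and 44, and by 72 h 24 and 74. The 6 h libraries lay far below those of 3 h, and the 72 h pair was the most spread, at 3.23 and 11.5 TPM. HBQ1 was 5.42-fold lower at 6 h than at 3 h (log2 -2.44, SE 0.47, edgeR adjusted p = 0.000841) and 10.0-fold lower than at 0 h (log2 -3.33, SE 0.47, edgeR adjusted p = 3e-05). That comparison with 0 h gave log2 -2.92 without replicate 2 of 0 h and -2.65 with the GC trend removed, and stayed called in both. At 24 h it was 15.4-fold lower and at 72 h 5.13-fold lower than at 0 h, both called. The sizes rested on single libraries: at 24 h the log2 value was -3.94, and -4.71 without replicate 2 of 24 h, while at 72 h it was -2.36, and -1.71 or -3.49 without replicate 1 or 2 of 72 h. The log2 difference of 1.37 between 24 and 48 h did not pass the test (edgeR adjusted p = 0.0863). It was called under 5 of the other settings, among them DESeq2 (adjusted p = 0.0317) and the replicate block (edgeR adjusted p = 0.0403), and without either 72 h library.

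**Figure D2:**
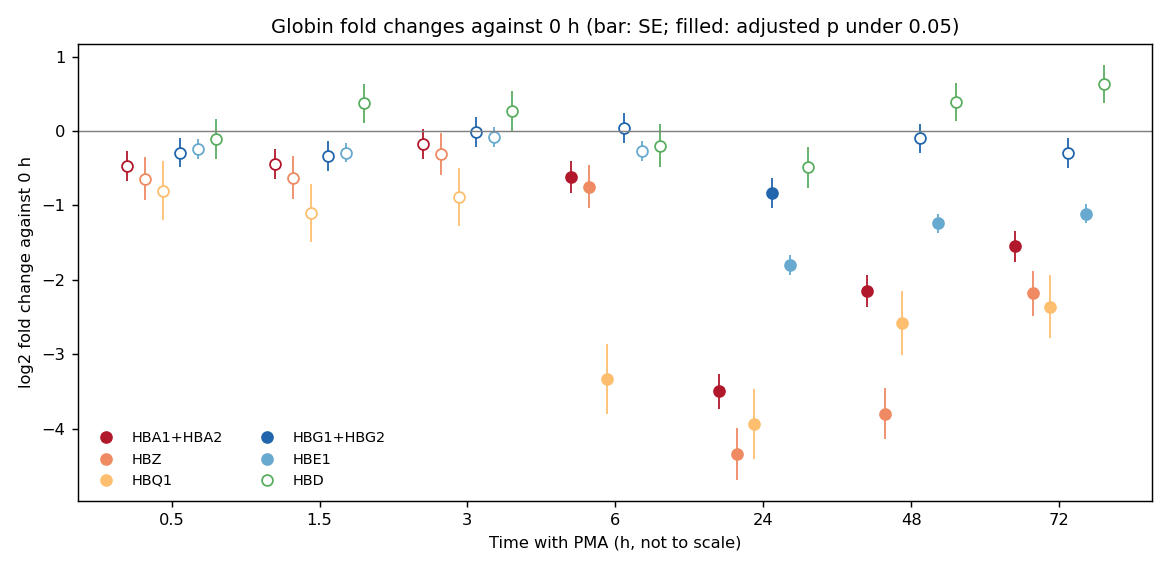
log2 fold change against 0 h (vertical axis) for 6 globin features at each later time (h, not to scale), with bars for the SE; filled points passed edgeR's test at an adjusted p under 0.05. HBQ1 stands alone near -3.33 at 6 h, the alpha-like genes lie between -4.34 and -3.50 at 24 h, and HBG1+HBG2 is filled only at 24 h.

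Gamma globin, the beta-like chain of fetal haemoglobin, was the most abundant globin RNA at every time and had the smallest called change at 24 h. The sum of HBG1 and HBG2 was 3690 and 3960 TPM at 0 h, 3350 and 3360 TPM at 0.5 h, 3220 and 2790 TPM at 1.5 h, and 3690 and 2740 TPM at 3 h. It was 3730 and 2790 TPM at 6 h, 2260 and 1860 TPM at 24 h, 4190 and 3300 TPM at 48 h, and 3900 and 2680 TPM at 72 h. Only the 24 h pair lay below all other libraries. At 24 h the sum was 1.78-fold lower than at 0 h (log2 -0.83, SE 0.20, edgeR adjusted p = 0.0032), and it rose 1.67-fold to 48 h (log2 0.74, SE 0.20, edgeR adjusted p = 0.0263). That rise lost its call without any 1 of the 24 h or 48 h libraries, with log2 values of 0.60 to 0.86. Against 0 h the sum did not pass the test at 48 h (log2 -0.10, SE 0.20, edgeR adjusted p = 0.713) or at 72 h (log2 -0.30, SE 0.20, edgeR adjusted p = 0.221). Between same-numbered libraries the 72 h difference from 0 h was log2 0.11 in replicate 1 and -0.75 in replicate 2. The replicates also differed in direction at 3 h (0.39 and -0.46), 6 h (0.32 and -0.24) and 48 h (0.17 and -0.36). Without replicate 1 of 72 h the log2 value of the sum at 72 h was -0.61.

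The split between the gamma copies is uncertain, since they are nearly identical. An annotated gene, ENSG00000284931 on chromosome 11 from 5248270 to 5254783, joins HBG2 exons to the last HBG1 exon and took 19.7 to 24.5% of all reads assigned to the HBG genes. With its reads added, an alternative chosen after seeing the data, the sum was at log2 -0.82 at 24 h (SE 0.20, edgeR adjusted p = 0.00349) and 0.76 from 24 to 48 h (SE 0.20, edgeR adjusted p = 0.0222). As assigned, HBG1 made up 17.5 and 18.0% of HBG1+HBG2 TPM at 0 h and 16.7% in both libraries at 6 h. Its share was 19.1% in both at 24 h, then 22.0 and 21.6% at 48 h, then 20.4 and 20.5% at 72 h. The late libraries thus lay above all 10 earlier ones, a description for which no test was run.

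HBE1, the embryonic epsilon chain, fell by 24 h and stayed lower through 72 h. It was at 684 and 798 TPM at 0 h, 624 and 686 TPM at 0.5 h, 595 and 586 TPM at 1.5 h, and 629 and 544 TPM at 3 h. At 6 h it was at 549 and 468 TPM, at 24 h 194 and 187 TPM, at 48 h 340 and 321 TPM, and at 72 h 382 and 343 TPM. The 3 late pairs did not overlap the earlier libraries. HBE1 was 3.49-fold lower at 24 h than at 0 h (log2 -1.80, SE 0.14, edgeR adjusted p = 8.38e-08), 2.35-fold lower at 48 h (log2 -1.24) and 2.15-fold lower at 72 h (log2 -1.11, SE 0.13, edgeR adjusted p = 8.01e-06). Over the other settings and left-out libraries its log2 value was -2.05 to -1.6 at 24 h and -1.28 to -0.91 at 72 h. The rise from 24 to 48 h was 1.48-fold (log2 0.57, SE 0.13, edgeR adjusted p = 0.0117), with adjusted p of 0.0534 to 0.0816 in edgeR without any 1 of the 4 libraries of these times.

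The adult beta-like genes stayed at the floor or close to it. HBB had 0 reads in 8 libraries and at most 4 in the others, none of them assigned to its main transcript. HBM, of the alpha cluster, was also at the floor, with 0 or 1 read. HBD, the delta chain of the minor adult haemoglobin, had 16 to 51 reads per library, with 28 and 23 at 0 h, 21 and 23 at 24 h, then 32 and 40 at 48 h, finally 51 and 34 at 72 h. In TPM this was 2.36 and 1.75 at 0 h, 1.83 and 1.1 at 24 h, then 3.39 and 3.84 at 48 h, finally 4.77 and 3.50 at 72 h. The 48 h and 72 h libraries lay above those of 0 h. HBD rose from 24 to 48 h (log2 0.88, SE 0.27, edgeR adjusted p = 0.0426), a call that was lost without any 1 of the 0.5, 1.5, 6, 24 or 48 h libraries and with DESeq2 (adjusted p = 0.188). At 72 h the log2 difference from 0 h was 0.63 (SE 0.26) and did not pass the test (edgeR adjusted p = 0.0503). It was called with DESeq2 size factors (edgeR adjusted p = 0.0376), the stricter count filter (edgeR adjusted p = 0.029), counts made from TPM (edgeR adjusted p = 0.0185) or the GC trend removed (edgeR adjusted p = 0.0249). It was also called without either 24 h library or replicate 2 of 72 h.

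HBD reads were assigned mostly to 1 annotated start early, and to a further one as well at 48 and 72 h. The 3 transcripts that begin at position 5234483, the start that RefSeq also gives, had 0 to 3.6 estimated reads in each of the 12 libraries up to 24 h. They had 14.1 and 20.4 at 48 h and 21.7 and 18.3 at 72 h. A transcript that begins upstream at 5243657 had 13.0 to 34.0 estimated reads in all 16 libraries. All 4 late libraries lay above the 12 earlier ones for the usual start, a description of few reads chosen after its values were seen and given without a test.

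The beta cluster also held forms of HBE1 and HBG2 that begin far upstream, near 5505604 on chromosome 11, and their shares of each gene's reads varied with time. The long HBE1 forms, 2 transcripts summed, had 71.0 ± 3.54 CPM (SD, n = 2) at 0 h, 57.7 ± 2.83 CPM at 6 h, 30.5 ± 0.665 CPM at 24 h and 37.6 ± 6.97 CPM at 72 h. They held 32.5 and 27.0% of HBE1 reads at 0 h, 29 and 28.9% at 6 h, then 45.7 and 42.7% at 24 h, before 32.9 and 31.2% at 48 h and again 35.4 and 31.6% at 72 h. The 24 h shares were the highest of the 16 libraries, and the short form was at 142 and 198 CPM at 0 h and 36.8 and 40.3 CPM at 24 h. The long HBG2 form went from 13.2 ± 1.13 CPM at 0 h to 6.82 ± 0.983 CPM at 24 h and 4.36 ± 0.509 CPM at 48 h. At 72 h it was at 4.67 ± 0.226 CPM and so showed no return, and its share of HBG2 reads was 1.55 to 1.69% at 0 h and 0.518 to 0.892% at 48 and 72 h.

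An HBG1 transcript annotated with a retained intron moved early, when the HBG1 sum did not pass the test. Its estimated reads were 149 and 121 at 0 h, only 67 and 69 at 0.5 h, but 516 and 472 at 1.5 h, then 582 and 643 at 3 h. They were 246 and 392 at 6 h, then 229 and 383 at 24 h, followed by 272 and 280 at 48 h, finally 282 and 237 at 72 h. In CPM the level went from 4.24 ± 0.481 at 0 h to 1.88 ± 0.148 at 0.5 h, then to 18.5 ± 3.54 at 3 h (SD, n = 2). In reads the 1.5 and 3 h libraries were above every other library and the 0.5 h pair below them all. No test was run on single transcripts, whose reads are divided by salmon's model.

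**Figure D3:**
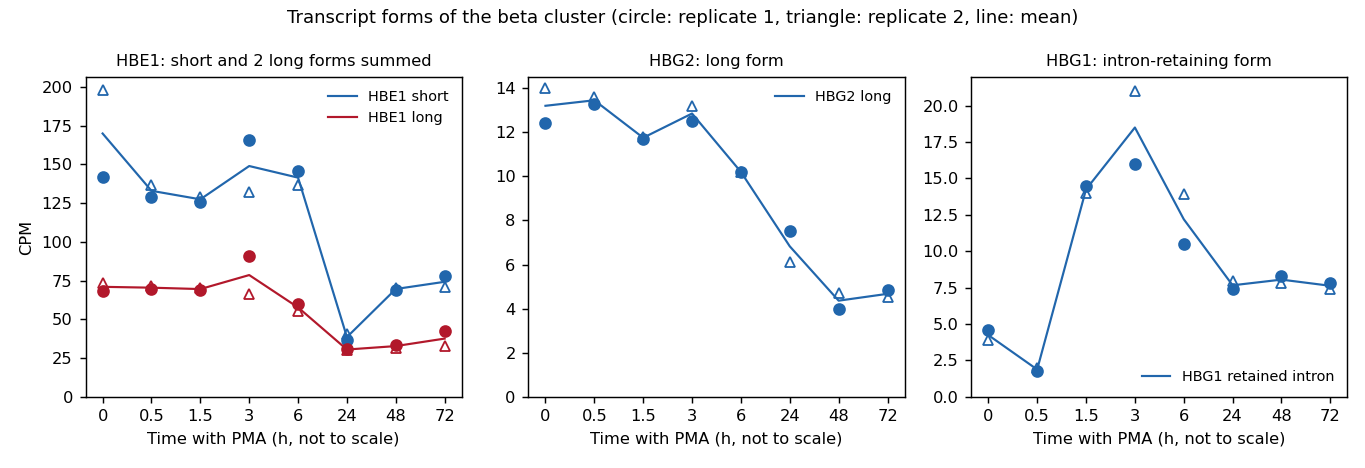
CPM (vertical axis) of transcript forms of the beta cluster against time with PMA (h, not to scale): HBE1 short and the 2 long forms summed, the long HBG2 form, and the HBG1 form with a retained intron. Circles are replicate 1, triangles replicate 2, lines means; the intron-retaining form is lowest at 0.5 h (1.88 CPM) and highest at 3 h (18.5 CPM), and the long HBG2 form ends at 4.67 CPM.

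The chain composition changed with time, on the TPM scale, which divides by transcript length and so allows levels of genes to be compared. Total globin was 5690 ± 525 TPM (SD, n = 2) at 0 h, 2340 ± 281 TPM at 24 h and 4050 ± 782 TPM at 72 h. The alpha-like genes made up 17.6 and 21.4% of it at 0 h, 11.5 and 15.8% at 6 h, then 3.26 and 4.53% at 24 h, followed by 4.87 and 6.80% at 48 h, finally 6.92 and 13.5% at 72 h. Alpha-like RNA was thus the smaller part at all times and smallest at 24 h, where both libraries were below all others. Within the alpha-like genes HBZ held 10.1 and 12.0% at 0 h, then 6.27 and 6.73% at 24 h, followed by 3.58 and 4.05% at 48 h, finally 6.41 and 8.40% at 72 h. Within the beta-like genes HBE1 held 15.6 and 16.8% at 0 h, then 7.90 and 9.14% at 24 h, finally 8.92 and 11.3% at 72 h. The embryonic chains therefore took a smaller share of each cluster's RNA at 24 h and later than at 0 h. These shares are given without a test and cover only the named members. At every time point the alpha-like share and the HBE1 share were higher in replicate 2 than in replicate 1. The joined gene ENSG00000284931 was left out of the total and the shares. It was at 1180 ± 213 TPM at 0 h, 674 ± 74.2 TPM at 24 h and 1070 ± 209 TPM at 72 h (SD, n = 2). With it counted as gamma, the total would be larger and the alpha-like and HBE1 shares smaller than printed.

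**Figure D4:**
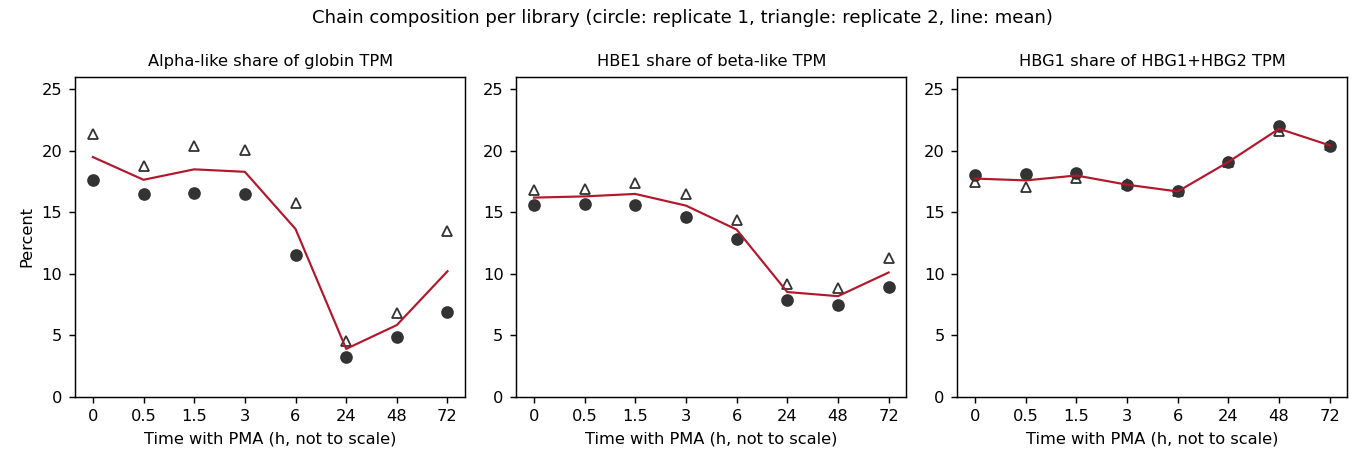
Percent (vertical axis) of globin TPM that was alpha-like, of beta-like TPM that was HBE1, and of HBG1+HBG2 TPM that was HBG1, per library against time with PMA (h, not to scale). The joined gene ENSG00000284931 is not included. Circles are replicate 1, triangles replicate 2, lines means; the alpha-like share drops to a mean of 3.89% at 24 h and the HBG1 share is highest at 48 h (21.8%).

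In order of level at 0 h, HBG2 was first (3150 TPM), followed by HBE1 (741 TPM), HBA1 (704 TPM) and HBG1 (679 TPM), whose libraries overlapped one another in this order, then HBA2 (255 TPM), HBZ (125 TPM), HBQ1 (34.0 TPM) and HBD (2.05 TPM). At 24 h the order was HBG2 (1670 TPM), HBG1 (393 TPM), HBE1 (190 TPM), HBA1 (61.1 TPM), HBA2 (20.9 TPM), HBZ (5.86 TPM), then HBQ1 (2.02 TPM) and HBD (1.46 TPM), and only the last 2 overlapped. At 72 h HBG1 (672 TPM) stood above HBE1 (362 TPM) without overlap, the reverse of their means at 0 h.

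The members' log2 CPM patterns over the 16 libraries were close for some pairs and not for others. HBA1+HBA2 and HBZ correlated at r = 0.98, HBA1+HBA2 and HBE1 at r = 0.97, and HBA1+HBA2 and HBQ1 at r = 0.80. HBA1+HBA2 and HBG1+HBG2 had r = 0.60 but a Spearman rho of 0.34, and HBD had r of 0.07 to 0.32 with the others. Among 11263 other genes, the closest to HBA1+HBA2 by Pearson r were ALAS2 (r = 0.979), MDK (r = 0.977) and TRAPPC6A (r = 0.971). Their Spearman rho was 0.897, 0.974 and 0.915, which puts ALAS2 last of these. ALAS2, the red cell enzyme that starts haem synthesis, had 28.4 CPM at 0 h, 1.79 CPM at 24 h and 8 CPM at 72 h. By Pearson r it was also the closest to HBZ (r = 0.978, rho 0.888), before MDK (r = 0.967, rho 0.982) and PHGDH (r = 0.965, rho 0.885). HBE1 was closest to PHGDH, the first enzyme of serine synthesis (r = 0.984), NSD2 (r = 0.981) and MYBL2 (r = 0.978). HBG1+HBG2 was closest to ENSG00000284931, which shares its sequence (r = 0.897, rho 0.915), TMSB4X (r = 0.885, rho 0.897) and H4C14 (r = 0.836, rho 0.685). These coefficients describe 16 libraries that share time points, depth and base composition.

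Promoter sequence from RefSeq (GRCh38.p14) matched 2 members by symbol, HBD and HBM. They are printed with that of ALAS2, whose pattern was closest to alpha globin by Pearson r: HBD because its usual start gained reads late, HBM because it stayed at 0 or 1 read. Each line gives the 200 bases before the start, 5′ to 3′ on the gene's strand. Capitals mark the letters GATAA (the core that GATA factors bind), CACCC (a core for KLF1), CCAAT and ATAAA on either strand.
HBD: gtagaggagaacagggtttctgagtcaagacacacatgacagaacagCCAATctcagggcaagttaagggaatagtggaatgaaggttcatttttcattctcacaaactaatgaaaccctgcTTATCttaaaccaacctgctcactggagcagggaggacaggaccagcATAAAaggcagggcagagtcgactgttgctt
HBM: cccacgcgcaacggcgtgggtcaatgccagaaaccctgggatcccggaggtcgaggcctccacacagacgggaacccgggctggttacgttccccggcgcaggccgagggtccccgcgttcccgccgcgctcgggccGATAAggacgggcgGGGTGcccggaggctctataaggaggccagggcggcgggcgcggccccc
ALAS2: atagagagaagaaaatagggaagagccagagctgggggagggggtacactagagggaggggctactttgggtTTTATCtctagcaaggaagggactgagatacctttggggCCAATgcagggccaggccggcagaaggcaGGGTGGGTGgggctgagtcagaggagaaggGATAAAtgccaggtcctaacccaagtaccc
The HBD window is 11:5234484-5234683 on the minus strand, the HBM window 16:165778-165977 on the plus strand and the ALAS2 window X:55030978-55031177 on the minus strand. HBD held 1 GATAA (as TTATC, positions -78 to -74 from the start), 1 CCAAT and 1 ATAAA (positions -31 to -27), and no CACCC. HBM held 1 GATAA (positions -63 to -59) and 1 CACCC as GGGTG (positions -49 to -45), and ALAS2 held 2 GATAA, each overlapping an ATAAA, 2 CACCC as GGGTG and 1 CCAAT. Of 35116 promoter windows of this length, 16.5% held GATAA, 48.0% CACCC, 28.0% CCAAT and 27.0% ATAAA. A match describes letters and not a bound site.

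More than 10 of the 20 listed regulators of globin genes were lower at each of 6, 24 and 72 h. KLF1 and GATA1 are activators of red cell genes, while BCL11A and ZBTB7A are known repressors of gamma globin. At 6 h 16 were lower and 3 higher, at 24 h 13 lower and 4 higher, and at 72 h 12 lower and 4 higher, with median log2 fold changes of -0.86, -0.57 and -0.63. Of all tested genes, 57.2%, 58.3% and 58.6% were called at these times and 29.4%, 26.6% and 26.9% were lower, with medians of 0.00, -0.01 and -0.03. KLF1 was at 43.8 and 61.4 CPM at 0 h, 1.32 and 1.68 CPM at 24 h, and 2.90 and 2.84 CPM at 72 h. It was already lower at 6 h (log2 -5.26, SE 0.20, edgeR adjusted p = 7.77e-11) and still so at 24 h (log2 -5.11) and 72 h (log2 -4.19). The 72 h libraries of KLF1 lay above those of 24 h. At 72 h it was further below 0 h than HBA1+HBA2 (log2 -1.55) and HBG1+HBG2 (log2 -0.30, not called). GATA1 was at 107 and 155 CPM at 0 h, fell to a log2 change of -3.76 at 6 h (SE 0.18, edgeR adjusted p = 7.11e-10) and was at 129 and 137 CPM at 72 h (log2 0.02, edgeR adjusted p = 0.923). Both repressors are named after their values were seen: ZBTB7A was higher at 6 h (log2 1.59), 24 h (log2 1.00) and 72 h (log2 0.98). BCL11A was at 4.39 and 5.02 CPM at 0 h and lower at 24 h (log2 -0.86, SE 0.24, edgeR adjusted p = 0.00795). It did not pass the test at 6 h (log2 0.30, edgeR adjusted p = 0.296) or 72 h (log2 -0.52, edgeR adjusted p = 0.0795).

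The 17 tested genes of globin assembly and haem synthesis were also mostly lower: 13 lower and 1 higher at 6 h, 12 lower and 4 higher at 24 h, and 11 lower and 4 higher at 72 h, with medians of -1.02, -0.84 and -0.80 (all genes 29.4%, 26.6% and 26.9% lower, of 57.2%, 58.3% and 58.6% called). AHSP, the chaperone of free alpha chains, was at 1.63 and 2.61 CPM at 0 h, 0.0323 and 0.0830 CPM at 24 h, and 0 and 0.0312 CPM at 72 h. It was lower at 24 h (log2 -5.00, SE 0.47, edgeR adjusted p = 5.81e-07), and its 72 h levels were not above those of 24 h. UROD, an enzyme midway in haem synthesis and the most abundant of the list, was lower at 6 h (log2 -0.54, SE 0.11, edgeR adjusted p = 0.00071) and at 24 h differed by log2 0.16, which did not pass the test. HMOX1, which breaks haem down, had at most 5 reads in any library.

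Of 20 tested red cell genes, 12 were lower and 2 higher at 6 h, 17 lower and 2 higher at 24 h, and 14 lower and 2 higher at 72 h, with medians of -0.53, -1.20 and -1.05 (all genes 29.4%, 26.6% and 26.9% lower, of 57.2%, 58.3% and 58.6% called). EPB42, a protein of the red cell membrane skeleton, was at 1.60 and 2.03 CPM at 0 h, 0.0323 and 0.125 CPM at 24 h, and 0 in both libraries at 72 h. TFRC, the transferrin receptor that brings in iron, was the most abundant and differed at 72 h by log2 -0.09, which did not pass the test (edgeR adjusted p = 0.603). HEMGN, a nuclear protein of blood progenitors named after its values were seen, was higher at 24 h (log2 2.19).

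The neighbouring genes moved in both directions at 6 h. Around the alpha cluster, 6 of 10 tested genes were lower and 3 higher at 6 h, 4 lower and 1 higher at 24 h, and 4 lower and 1 higher at 72 h, with medians of -1.33, -0.27 and -0.32. Among all genes 57.2%, 58.3% and 58.6% were called and 29.4%, 26.6% and 26.9% lower, so 5 of 10 called at 24 and at 72 h was near the background. NPRL3, whose introns hold the main alpha-globin enhancers and which is named after its values were seen, was at 73.7 and 101 CPM at 0 h, 56.0 and 62.9 CPM at 24 h, and 50.8 and 80.8 CPM at 72 h. Its log2 change was -1.40 at 6 h (SE 0.19, edgeR adjusted p = 2.67e-05), against -0.56 at 24 h (SE 0.19, edgeR adjusted p = 0.0208), and -0.41 at 72 h did not pass the test (edgeR adjusted p = 0.0736). LUC7L was higher at 6 h (log2 0.82), differed by log2 0.08 at 24 h, which did not pass the test, and was lower at 72 h (log2 -0.30, SE 0.10, edgeR adjusted p = 0.0241). ARHGDIG went from 0.430 and 0.869 CPM at 0 h to 0 in both libraries at 72 h.

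Around the beta cluster, 2 of 11 tested genes were lower and 1 higher at 6 h, 8 lower and 0 higher at 24 h, and 7 lower and 1 higher at 72 h, with medians of -0.30, -0.83 and -0.69 (all genes 29.4%, 26.6% and 26.9% lower, of 57.2%, 58.3% and 58.6% called). OR51B5, an olfactory receptor gene whose annotated span overlaps that of the long HBE1 and HBG2 forms, so that overlapping reads are uncertain, was at 73.5 and 67.9 CPM at 0 h, 39.8 and 39.6 CPM at 24 h, and 39.6 and 38.0 CPM at 72 h. It was lower at 24 h (log2 -0.83, SE 0.08, edgeR adjusted p = 8.06e-07), as it was at 72 h (log2 -0.87), so like the long HBG2 form it showed no late return. HBBP1, the beta-globin pseudogene between HBG1 and HBD, also named after its values were seen, was lower at 24 h (log2 -1.61, SE 0.20, edgeR adjusted p = 1.23e-05), as it was at 72 h (log2 -1.04). TRIM6 was lower at 6 h (log2 -2.95), 24 h (log2 -2.59) and 72 h (log2 -1.66).

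Among the globins outside both clusters, MB, the muscle oxygen store myoglobin, moved the other way. It was at 0.0614 and 0.0322 CPM at 0 h, 14.8 and 15.8 CPM at 24 h, and 3.51 and 3.75 CPM at 72 h. The 0 h libraries were under the 3-read limit, and MB was called higher at 6 h (edgeR adjusted p = 3.18e-05), 24 h (edgeR adjusted p = 5.18e-10) and 72 h (edgeR adjusted p = 1.72e-08). The 24 h libraries were thus the highest for MB and the lowest for HBA1+HBA2.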

How the data were processed

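Sequencing reads of 16 K562 libraries had been quantified per transcript before deposit. The deposited values are estimated counts of reads and TPM per transcript, made with salmon per the file headers. Per the submitters' processing notes the tools named include Trim Galore 0.4.3 and Salmon; the Salmon version and the transcriptome build were not given in the sources used here. Of 177456 transcript IDs, 167027 (94.12%) matched GENCODE v29 on GRCh38 and were summed to 35052 genes; unmatched transcripts held 3.01 to 3.75% of the reads. HBA1 with HBA2 and HBG1 with HBG2 were also summed, since the copies share reads.

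The gene counts were rounded and fitted over all 8 time points (2 libraries each) with edgeR 4.0.16 in R 4.3.3, using trimmed mean (TMM) scaling, the filterByExpr filter (17559 genes left) and the quasi-likelihood F-test without a replicate term. P-values were adjusted by Benjamini-Hochberg over all tested genes at a threshold of 0.05, and fold changes carry a prior count of 0.125. DESeq2 1.42.0 served as an alternative. TPM was used to compare levels between genes and for shares, with no test. The script was tested on simulated data for 24 h against 0 h, with 200 changed genes. It recovered 58% of 2-fold and 77% of 4-fold changes, and 4 of 139 calls were false. A change that did not pass the test may therefore have been missed.

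The globin genes and the other lists were chosen with earlier results of these data known. All globin members are named. From each other list the called gene with the largest change at 72 h and the gene with the highest mean TPM are named, and for HBA1+HBA2, HBG1+HBG2, HBZ and HBE1 the 3 genes with the highest Pearson r over the libraries, at a mean of at least 5 CPM. Alternatives were total-count and DESeq2 scaling, no or a stricter count filter (10 reads in every library), a replicate block, counts made from TPM, a GC correction, fits of only the time points compared, summed copies, and leaving out each library. Promoter windows came from RefSeq. Proteins were not analysed here.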

Additional observations from a re-analysis of the deposited data

How the results depend on the processing

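Apart from the runs that left out a library, 351 fold changes of globin genes kept their direction and their side of the threshold, 16 gained a call, 7 lost one and 4 changed sign; leaving out libraries kept 631, with 8 gains, 27 losses and 6 changes of sign. The sign changes concerned values near 0: HBG1+HBG2 at 6 h was -0.32 with total-count scaling and 0.00 with the joined HBG2-HBG1 gene added (chosen after seeing the data), at 48 h 0.00 with counts made from TPM, and HBD at 6 h was 0.03 with counts made from TPM. Left-out libraries gave -0.10 to 0.19 for HBG1+HBG2 at 6 h, -0.23 to 0.05 at 48 h, and -0.39 to 0.17 for HBG1 at 72 h. The cause was not tested.

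The number of members called moved as follows. Total-count scaling called 1 at 1.5 h, 3 at 3 h and 5 at 6 h. Without a low-count filter 4 were called at 0.5 h, 3 at 1.5 h, 1 at 3 h, 4 between 3 and 6 h, and 3 between 48 and 72 h; with at least 10 reads in every library 1 was called from 3 to 6 h. Removing the GC trend called 1 at 6 h, 1 between 3 and 6 h, and 3 between 48 and 72 h. Fits of only the 2 time points called 1 at 1.5 h, 1 at 3 h, 4 between 3 and 6 h, but 0 between 48 and 72 h. With copies summed (8 features) 1 was called from 3 to 6 h. The replicate block called 2 at 1.5 h and 2 from 48 to 72 h. Same-numbered libraries correlated in their deviations at -0.3 to 0.6 over 28 pairs of time points (median 0.26, 24 above 0.1). Most pairs of time points thus shared some deviation between replicate numbers. The main fit still had no replicate term, which only the replicate block added.

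Leaving out 1 library at a time gave 0 to 3 members at 0.5 h, 0 to 5 members at 1.5 h, 0 to 2 members at 3 h and 2 to 5 members at 6 h, the highest without replicate 1 of 0 h in each case. It gave 7 at 24 h, 5 at 48 h and 5 to 6 at 72 h. Between times it gave 1 to 2 from 3 to 6 h, 5 to 6 from 6 to 24 h, 2 to 7 from 24 to 48 h, 0 to 1 from 48 to 72 h and 5 to 8 for any change. From 3 to 6 h, 1 was called without any 1 of the 0.5, 1.5, 6 or 48 h libraries, replicate 1 of 3 h or replicate 2 of 24 h. With levels from reads over the effective length of the main transcript, the HBE1 share of beta-like RNA was 18.0% at 0 h and 10.2% at 24 h, and the HBG1 share of HBG1+HBG2 19.4% at 24 h and 20.7% at 72 h. At 72 h HBG1+HBG2 was called lower with total-count scaling (log2 -0.46, edgeR adjusted p = 0.0455). Depth limits HBQ1 after 3 h and HBD, at 9 to 74 reads and 16 to 51 reads per library, and allows no fold for HBB or HBM.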
